A study of Mus musculus with 5 samples.

Results

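The proteasome is the large protease that degrades ubiquitin-tagged proteins, and 49 of the 18194 genes named by a probe set of their own on these arrays have a proteasome symbol, beginning with Psma, Psmb, Psmc, Psmd, Psme, Psmf or Psmg and a digit. The members were taken by symbol alone, with no use of their levels. They were read by 103 probe sets of the 45101 on the array. A further 1 probe set names both Psme2 and Psme2b and was left out, so the second PA28 subunit gene was not measured here. After probe sets with a mean under 4.77 over the arrays were left out (the filter), 47 of the 49 genes and 84 of the 103 probe sets were tested. Psma8, known from mouse testis, and Psmb11, known from the thymic cortex, were too dim to be tested.

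RNA came from optic nerves of C57BL/6 mice at P35 to P45, kept as organotypic cultures for 3 days in vitro with LY294002, an inhibitor of PI3K that also inhibits other kinases. L-LY29 (3 arrays) is 0.5 µM and H-LY29 (2 arrays) is 50 µM by the sample labels. The titles name LY294002 and the treatment entries LY295002, taken here as 1 compound. The paper's methods give a higher dose than the labels for L-LY29 in adult nerves, and which dose these arrays received was not settled here. All nerves came from unmodified mice. The series holds arrays of these 2 doses only and no control arrays. All differences below are of L-LY29 less H-LY29 in log2 units of the deposited signals, and a negative one means a lower signal in L-LY29. No source used here says how the nerves and mice were divided among arrays, so a p-value here covers the spread from array to array alone, which may be technical.

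A proteasome holds a barrel, the 20S core, of outer alpha and inner beta rings, and a 19S cap that binds ubiquitin chains, unfolds the substrate and feeds it in. Only a few of the beta subunits cut. Psmb5, Psmb6 and Psmb7 carry the chymotrypsin-like, caspase-like and trypsin-like activities, and cells that meet interferon replace them with Psmb8, Psmb9 and Psmb10 to build the immunoproteasome, which makes peptides for class I antigen presentation. In brain and nerve, microglia are a known site of immunoproteasome expression.

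The arrays of the same dose correlated at 0.9905 to 0.9952 over all probe sets and arrays of different doses at 0.8817 to 0.8921. The median signal of an L-LY29 array was 5.33 to 5.35, and of an H-LY29 array 5.54 to 5.56. The poly-A control transcripts, which are added to the RNA before labelling, averaged 10.22 in L-LY29 and 3.17 in H-LY29, so a step of the sample handling also differed with the dose, and it cannot be told apart from the dose. The excess of 3' over 5' signal was -0.13 (L-LY29) and 0.69 (H-LY29) for Gapdh, and 0.43 (L-LY29) and 0.92 (H-LY29) for actin. Markers of myelinating oligodendrocytes were bright on every array, with a mean level of 12.13 to 12.23 in L-LY29 and up to 12.12 in H-LY29, and of the 9 tested 6 were higher in L-LY29 and 3 lower. Of 6 markers of oligodendrocyte precursors 4 were lower, 1 higher and 1 did not pass, with a median of -1.04 (mean level 7.14 to 7.52 in L-LY29, against 8.03 to 8.49 in H-LY29). Fibroblast markers were lower in L-LY29 for 7 of 7 genes (mean level 7.83 to 8.52 in L-LY29, against 10.87 to 11.25 in H-LY29), and ocular surface epithelium markers were higher for 7 of 9 (7.88 to 10.42 in L-LY29, against 4.16 to 4.49 in H-LY29), though 6 of these 9 had an H-LY29 mean under the filter. Such counts are to be read beside those of all genes tested, of which 46.6% were lower in L-LY29 and 27.1% higher. The part of these markers in the results on proteasome genes was not tested. In whole nerves, fewer cells of a type and less RNA per cell cannot be told apart.

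Of the 47 proteasome genes, 28 were lower in L-LY29, 9 were higher and 10 did not pass (limma, Benjamini-Hochberg over all 12936 genes tested). That is 59.6% lower and 19.1% higher. Over all genes tested, 46.6% were lower and 27.1% higher, so most genes of any kind differed between these arrays. The median difference was -0.34 over the proteasome genes and -0.26 over all genes tested. With quantile normalization the split was 20 lower and 12 higher, and with equal array medians 20 lower and 14 higher. Those scalings also moved the median of all genes, to 0.06 and to -0.05, and the share of higher genes among all called genes was 36.8% as deposited, 52% and 47.1%. For the proteasome genes that share was 24.3% as deposited, 37.5% with quantile normalization and 41.2% with equal array medians.

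**Figure D1:**
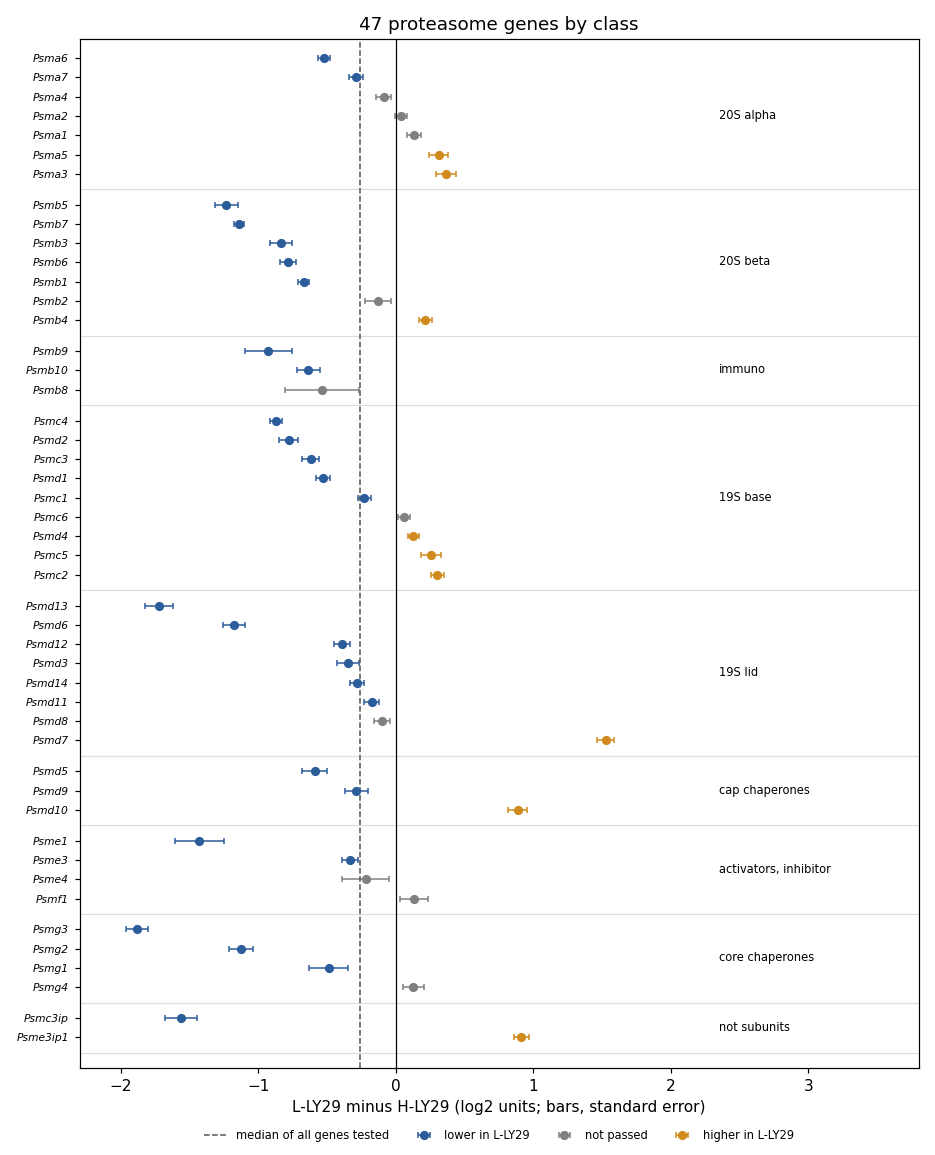
The difference of each of the 47 tested proteasome genes, L-LY29 minus H-LY29 in log2 units, with its standard error, grouped by class and ordered within it. Colours give the call, and the dashed line is the median over all genes tested, -0.26. Psmg3 lies farthest to the left at -1.88 and Psmd7 farthest to the right at 1.52.

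Few proteasome genes had a difference of 0.5 or higher. Of the 47, 24 (51.1%) lay between -0.5 and 0.5, against 34.7% of all genes tested. A difference of -0.5 or lower was as frequent in the proteasome genes (42.6%) as in all genes (42.6%), while a difference of 0.5 or higher was found in 3 proteasome genes (6.38%) and in 22.7% of all genes. The 3 were Psmd7, Psmd10 and Psme3ip1, and Psme3ip1 is a binding partner of the activator subunit Psme3 and no subunit itself. Proteasome genes were also brighter than most, with a median level of 10.69 to 10.80 in L-LY29, against 10.94 to 11.05 in H-LY29, against 7.66 to 7.73 in L-LY29, against 8.30 to 8.33 in H-LY29 for all genes tested, and the part of brightness in the size of the differences was not tested. No overlap between the doses was found for 42 of 47 proteasome genes, and for 83.1% of all genes.

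**Figure D2:**
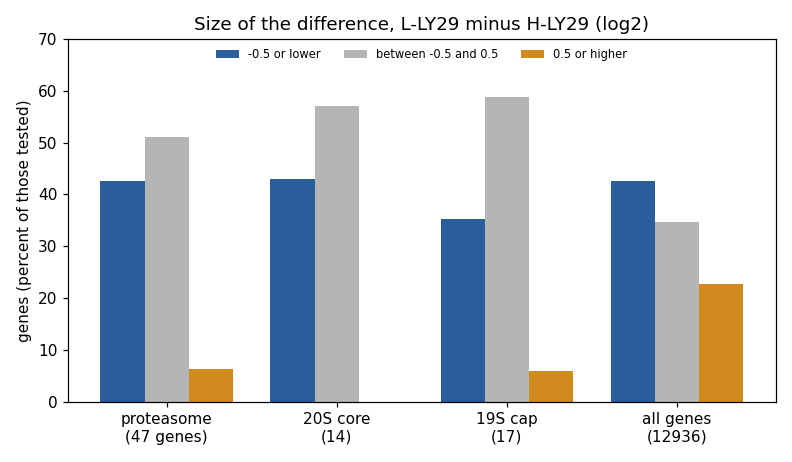
The percent of tested genes (y axis) whose difference, L-LY29 minus H-LY29, was -0.5 or lower, between -0.5 and 0.5, or 0.5 or higher in log2 units, for all 47 proteasome genes, the 20S core, the 19S cap and all 12936 genes. The right-hand bar of differences of 0.5 or higher is 6.38% for the proteasome genes and 22.7% for all genes, and the 20S core has none.

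By class, the 14 tested genes of the 20S core had a median difference of -0.21 (7 lower, 3 higher, 4 not passed), the 17 genes of the 19S cap one of -0.28 (11 lower, 4 higher, 2 not passed) and the 3 immunoproteasome genes one of -0.64 (2 lower, 1 not passed). That is 50% lower and 21.4% higher for the core, and 64.7% lower and 23.5% higher for the cap. All genes tested had 46.6% lower and 27.1% higher, and the shares of the core lie near these. The core median lies 0.05 above that of all genes and the cap median differs from it by -0.02. With equal array medians the core median was 0.00. The rings are given apart, and the difference between them was not tested. The 7 tested alpha genes had a median of 0.04, which was -0.02 with no filter, -0.09 with the mean of the probe sets, -0.39 with the second brightest probe set and between -0.10 and 0.07 with 1 array left out, so it has no settled sign. The 7 beta genes had a median of -0.78, with 5 lower, 1 higher and 1 not passed, and -0.04 with the second brightest probe set, which 3 of them have. The median level of the beta genes was 11.06, 11.17 and 11.12 on the L-LY29 arrays, against 12.09 and 11.91 on the H-LY29 arrays, while that of the alpha genes was 11.38, 11.38 and 11.42 in L-LY29, against 11.49 and 11.42 in H-LY29.

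All 3 constitutive catalytic subunits were lower in L-LY29. Psmb5, the chymotrypsin-like subunit, read 10.65, 10.81 and 10.83 in L-LY29, against 12.09 and 11.91 in H-LY29, a difference of -1.23 ± 0.08 (SE; limma adjusted p = 0.000183). Psmb7, the trypsin-like subunit, read 11.03, 11.00 and 11.03 in L-LY29, against 12.17 and 12.17 in H-LY29, a difference of -1.14 ± 0.04 (adjusted p = 4.52e-05 by limma). The doses were more than 1 log2 unit apart for both genes, and the arrays of a dose lay close together. Psmb6, the caspase-like subunit, read 11.06, 11.17 and 11.12 in L-LY29, against 11.96 and 11.84 in H-LY29 (-0.78 ± 0.06, limma adjusted p = 0.00023). These calls held in each alternative in which the genes had a value. Each of the 3 genes had a single probe set on the array.

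The remaining beta genes are structural parts of the ring. Psmb3 read 11.37, 11.42 and 11.44 in L-LY29, against 12.37 and 12.13 in H-LY29 (-0.84 ± 0.08, limma adjusted p = 0.000523), but a dimmer probe set of Psmb3 did not pass, at -0.04. Psmb1 was lower by all 3 of its probe sets, with a difference of -0.67 ± 0.04 at the brightest. Psmb4 alone was higher, with 11.72, 11.72 and 11.80 in L-LY29, against 11.56 and 11.51 in H-LY29 (0.21 ± 0.05, limma adjusted p = 0.0106). Its other probe set gave -0.01 and did not pass, and without H-LY29 replicate 2 the brightest one (0.18) did not pass either. Psmb2 did not pass (-0.13).

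Among the alpha genes, whose ring closes and opens the channel, Psma6 had the largest difference by brightest probe sets, and Psma5, whose other probe set gave -1.04, is described with the probe sets in both directions. Psma6 read 11.48, 11.54 and 11.56 in L-LY29, against 12.04 and 12.06 in H-LY29 (-0.52 ± 0.04, limma adjusted p = 0.000289). Psma7 was lower by 2 of 2 probe sets, at -0.29 for the brightest, a call that was lost with equal array medians. Psma3 was higher, with 12.24, 12.27 and 12.24 in L-LY29, against 11.77 and 11.99 in H-LY29 (0.37 ± 0.07, limma adjusted p = 0.0071). Its other probe set, far dimmer with a mean of 5.17 over the arrays, gave 0.06 and did not pass. Psma1, Psma2 and Psma4 did not pass, with differences between -0.09 and 0.13.

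**Figure D3:**
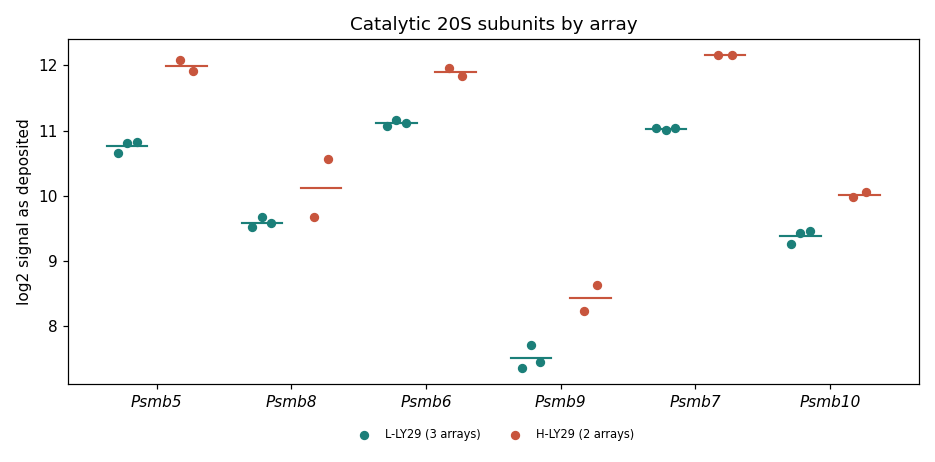
Log2 signal of the 6 catalytic subunits on each array, L-LY29 to the left and H-LY29 to the right for each gene, with the mean as a bar. Each constitutive subunit (Psmb5, Psmb6, Psmb7) stands beside the subunit that replaces it (Psmb8, Psmb9, Psmb10), and levels are to be compared between doses of 1 gene, not between genes. The H-LY29 arrays lie above the L-LY29 arrays for all 6 genes, with Psmb8 at 9.68 and 10.57.

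The immunoproteasome subunits were also lower in L-LY29 or did not pass. Psmb9 read 7.35, 7.71 and 7.45 in L-LY29, against 8.24 and 8.63 in H-LY29 (-0.93 ± 0.17, limma adjusted p = 0.00565). It did not pass with quantile normalization (-0.44, limma adjusted p = 0.0725) or without H-LY29 replicate 2 (-0.73, limma adjusted p = 0.0507). Psmb10 read 9.26, 9.43 and 9.46 in L-LY29, against 9.97 and 10.06 in H-LY29 (-0.64 ± 0.08, limma adjusted p = 0.00166). Psmb8 read 9.52, 9.67 and 9.58 in L-LY29, against 9.68 and 10.57 in H-LY29. Its 2 H-LY29 arrays lie so far apart that the difference of -0.53 ± 0.27 did not pass (limma adjusted p = 0.131), although the doses did not overlap. Without H-LY29 replicate 1 it was -0.98 (limma adjusted p = 0.00589), and without replicate 2 it was -0.09. A second probe set of Psmb8 was too dim to be tested.

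Each constitutive subunit was set against its immunoproteasome counterpart by the difference of the 2 log2 signals on each array, over 3 pairs. These are RNA signals, and the exchange of the protein subunits was not measured. Psmb8 less Psmb5 was -1.14, -1.14 and -1.25 in L-LY29, against -2.41 and -1.34 in H-LY29, a shift of 0.70 towards Psmb8 in L-LY29. Psmb10 less Psmb7 was -1.78, -1.57 and -1.57 in L-LY29, against -2.19 and -2.11 in H-LY29, a shift of 0.51 towards Psmb10. In both pairs the constitutive gene had the larger negative difference. Psmb5 was at -1.23, against -0.53 for Psmb8 (not passed), and Psmb7 at -1.14, against -0.64 for Psmb10. The doses did not overlap in either pair, and the exact two-sided permutation p was 0.1 for each, which is the smallest that 3 arrays against 2 can give (adjusted over the 3 pairs, 0.15). Psmb9 less Psmb6 was -3.71, -3.46 and -3.67 in L-LY29, against -3.72 and -3.21 in H-LY29, which overlap (-0.15, exact permutation p = 0.7). The shift of the Psmb8 pair rests on H-LY29 replicate 1: it was 0.16 without that array. Only the change of a pair between doses can be read here, since signals of 2 probe sets have no common scale.

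Some genes that interferon induces lay apart between the 2 H-LY29 arrays, a comparison of single arrays. Replicate 2 was above replicate 1 for Psmb8 by 0.89, for Psmb9 by 0.39, for Psmb10 by 0.09 and for Psme1 by 0.56. Among the other 43 tested proteasome genes replicate 2 was above replicate 1 for 16 (37.2%), and the median was -0.05. Their range, -0.29 to 0.27, holds the value of Psmb10. Of 17 genes of class I antigen presentation and its interferon regulators, 13 (76.5%) were above on replicate 2, with a median of 0.47 and 1.09 for Tap1, against 44.1% and -0.03 for all genes tested. Over both arrays, 10 of these 17 genes were lower in L-LY29, 3 higher and 4 did not pass, with a median of -0.82. Over all genes tested, 46.6% were lower and 27.1% higher. The class I genes H2-K1 and H2-D1 did not pass (0.31 and 0.12). Nlrc5, the transcriptional activator of class I genes, read 4.53, 4.97 and 5.18 in L-LY29, against 7.55 and 8.33 in H-LY29 (-3.05). Tap1, a subunit of the transporter that carries proteasome peptides into the endoplasmic reticulum, read 6.58, 6.96 and 7.19 in L-LY29, against 9.13 and 10.22 in H-LY29 (-2.77). Both were far lower in L-LY29 on every array. The interferon gamma receptor genes went the other way, with Ifngr1 at 1.01 and Ifngr2 at 0.89.

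Markers of microglia were mostly higher in L-LY29. Of 15 tested markers of microglia and macrophages 10 were higher, 4 lower and 1 did not pass, and their mean level was 8.96 to 9.17 in L-LY29, against 8.40 to 8.64 in H-LY29. The 4 lower ones were Cd163, Mrc1, C1qb and Tmem119, of which Mrc1 had an L-LY29 mean under the filter. Of 10 lymphocyte markers 3 were tested, with 2 higher, of which 1 had an H-LY29 mean under the filter and passed it through L-LY29, and 1 not passed (mean level 5.78 to 5.86 in L-LY29, against 4.77 to 4.84 in H-LY29), and the other 7 were too dim or had no probe set of their own. All 7 fibroblast markers and 5 of 8 astrocyte markers were lower in L-LY29. The astrocyte marker S100b was higher (1.38), and Gfap and Slc1a2 did not pass. These marker counts stand beside 46.6% lower and 27.1% higher over all genes tested. Astrocyte markers averaged 8.78 to 9.55 in L-LY29, against 10.71 to 10.77 in H-LY29. The part of these cells in the levels of the immunoproteasome genes was not tested.

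**Figure D4:**
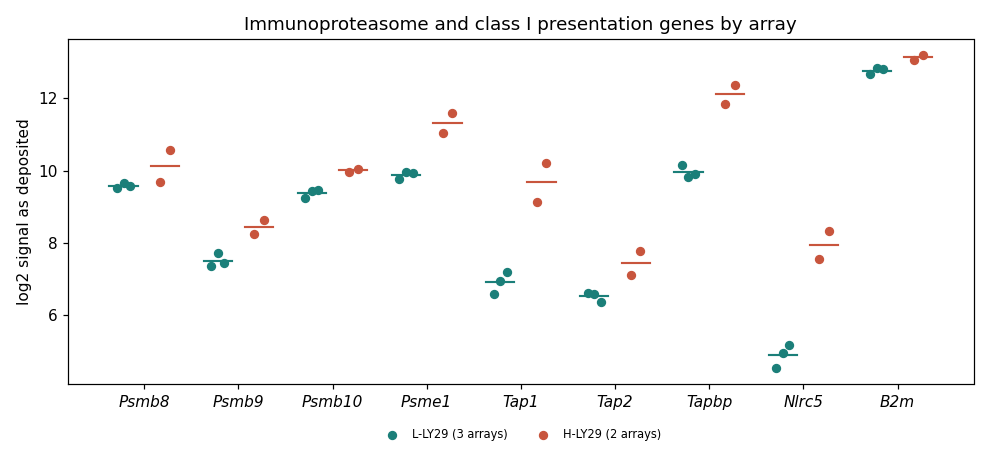
Log2 signal of the immunoproteasome genes, the activator subunit Psme1 and 5 genes of class I antigen presentation on each array, L-LY29 to the left and H-LY29 to the right for each gene, with the mean as a bar. The right-hand H-LY29 point is replicate 2, which lies above replicate 1 for all 9 genes, by 1.09 for Tap1. All 5 class I genes shown were lower in L-LY29, whereas of the 17 on their list 3 were higher and 4 did not pass.

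The promoters of the catalytic genes show which known control letters lie close by. RefSeq promoters (GRCm38.p6) were matched by symbol for 41 of the 49 genes (44 promoters), and the 250 bases before the start were searched on both strands. A gene was counted if any of its promoters held the letters. Psmb5 lies on chromosome 14, minus strand, and Psmb8 on chromosome 17, plus strand. Psmb9 and Tap1 lie head to head on chromosome 17, with 225 bases between their starts. That stretch is printed whole because both genes were lower in L-LY29 as deposited, a choice made from these data. Whether the stretch bears on either level was not tested. Capitals mark the antioxidant response element core (TGACNNNGC or TGAGNNNGC) in Psmb5, the gamma-activated site core (TTCNNNGAA) in Psmb8, and a CCAAT box read on the other strand in Psmb9.
Psmb5, chr14:54617996-54618245, strand -: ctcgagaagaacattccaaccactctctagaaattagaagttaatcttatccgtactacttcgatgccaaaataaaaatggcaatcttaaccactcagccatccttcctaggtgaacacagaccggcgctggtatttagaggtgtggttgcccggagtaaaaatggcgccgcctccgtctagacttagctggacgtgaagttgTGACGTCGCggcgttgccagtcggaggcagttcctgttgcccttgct
Psmb8, chr17:34197945-34198194, strand +: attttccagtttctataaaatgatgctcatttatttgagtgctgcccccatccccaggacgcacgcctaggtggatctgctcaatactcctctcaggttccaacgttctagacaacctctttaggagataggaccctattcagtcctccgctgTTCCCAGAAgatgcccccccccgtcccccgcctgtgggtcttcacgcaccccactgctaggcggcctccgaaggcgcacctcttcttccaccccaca
Psmb9 (to the start of Tap1), chr17:34187331-34187555, strand -: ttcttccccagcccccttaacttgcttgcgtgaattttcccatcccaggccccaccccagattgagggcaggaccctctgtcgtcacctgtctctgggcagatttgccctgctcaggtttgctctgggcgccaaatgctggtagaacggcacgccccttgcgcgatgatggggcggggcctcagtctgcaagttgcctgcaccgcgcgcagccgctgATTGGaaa

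The antioxidant response element core, the site that Nfe2l1 and Nfe2l2 bind with small Maf proteins, stood 47 to 39 bases before the start of Psmb5 (TGACGTCGC) and 9 to 1 bases before that of Psmb6 (TGACGGAGC). It was found for 13 of the 41 genes (31.7%), against 25.7% of all genes with a promoter. By call, it was found for 9 of 23 genes lower in L-LY29, 1 of 8 genes higher and 3 of 9 genes that did not pass, the remaining gene being the untested Psmb11. The gamma-activated site core stood 97 to 89 bases before the start of Psmb8 (TTCCCAGAA) and was found for 2 of the 41 genes (4.88%), against 8.13% of all genes. The interferon-stimulated response element core (GAAANNGAAA) was in 3 of the 41 (7.32%; Psmb3, Psmd4 and Psmd9), against 3.46% of all genes, and in none of the 3 immunoproteasome promoters in this window. The CCAAT box was found for 16 of the 41 (39%), against 37.5% of all genes, among them 5 of the 8 genes higher in L-LY29 and 8 of the 23 genes lower. A match of letters is a description of the window and not a bound site.

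In the base of the cap, which holds the ring of ATPases Psmc1 to Psmc6 and the scaffold subunits, 5 of 9 genes were lower, 3 higher and 1 did not pass. That is 55.6% lower and 33.3% higher, against 46.6% and 27.1% of all genes tested. The ATPase Psmc4 read 10.62, 10.62 and 10.58 in L-LY29, against 11.48 and 11.48 in H-LY29 (-0.87 ± 0.04, limma adjusted p = 7.38e-05). Psmd2, a scaffold that binds shuttle receptors, read 10.84, 10.99 and 11.00 in L-LY29, against 11.72 and 11.73 in H-LY29 (-0.78 ± 0.07, limma adjusted p = 0.000341). The third by size was the ATPase Psmc3, with 10.95, 11.05 and 11.10 in L-LY29, against 11.70 and 11.62 in H-LY29 (-0.62 ± 0.06). All 3 differences exceed the spread between arrays several times over. The other scaffold, Psmd1, was lower by 0.53 and Psmc1 by 0.23, and the call of Psmc1 was lost with quantile normalization, with equal array medians and with the replicate number as a block.

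The higher genes of the base had small differences. Psmc2 read 11.23, 11.29 and 11.32 in L-LY29, against 10.94 and 11.01 in H-LY29 (0.30 ± 0.05). Its second probe set was called lower, at -0.61, and is described with the probe sets in both directions. Psmc5 read 11.20, 11.31 and 11.20 in L-LY29, against 10.89 and 11.07 in H-LY29 (0.26 ± 0.07). Psmd4, the intrinsic ubiquitin receptor of the cap, read 11.39, 11.41 and 11.39 in L-LY29, against 11.25 and 11.29 in H-LY29 (0.13 ± 0.04). The 2 dimmer probe sets of Psmd4 were higher by 0.65 and 1.14. With 1 L-LY29 array left out Psmc5 and Psmd4 no longer passed, with differences of 0.12 to 0.27, and Psmc5 did not pass without H-LY29 replicate 1 either (0.17). Psmc6 did not pass at its brightest probe set (0.06), while its 2 dimmer ones were higher by 1.38 and 0.53.

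The lid, which holds the deubiquitinase that cuts ubiquitin off the substrate, had the widest range. Psmd13, a scaffold subunit, read 8.54, 8.36 and 8.66 in L-LY29, against 10.24 and 10.25 in H-LY29 (-1.72 ± 0.10, limma adjusted p = 0.000133). Psmd6, another scaffold subunit, read 10.29, 10.40 and 10.48 in L-LY29, against 11.63 and 11.51 in H-LY29 (-1.18 ± 0.08, limma adjusted p = 0.000166). Psmd7, the inactive partner of the deubiquitinase, went the opposite way, with 10.69, 10.72 and 10.71 in L-LY29, against 9.12 and 9.25 in H-LY29 (1.52 ± 0.06, limma adjusted p = 5.44e-05). Each of the 3 genes was called the same way by a second probe set, at -1.24 for Psmd13, -1.12 for Psmd6 and 1.10 for Psmd7. Psmd14, the deubiquitinase itself, was lower by 0.28, a call that was lost with equal array medians. The third lower gene by size was Psmd12, with 10.12, 10.19 and 10.23 in L-LY29, against 10.62 and 10.54 in H-LY29 (-0.39 ± 0.06). Psmd3 and Psmd11 were lower by 0.35 and 0.17 and Psmd8 did not pass (-0.10), but Psmd11 did not pass without any single L-LY29 array (-0.18 to -0.16), nor Psmd3 without H-LY29 replicate 1 (-0.26). Neither passed with quantile normalization (-0.03 for Psmd3, -0.14 for Psmd11) or with equal array medians (-0.13 for Psmd3, 0.04 for Psmd11), and the mean of its probe sets put Psmd11 at 0.18.

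Free activators and inhibitors bind the core in place of the cap. Psme1, a subunit of the interferon-induced PA28 activator, read 9.76, 9.97 and 9.93 in L-LY29, against 11.03 and 11.60 in H-LY29 (-1.43 ± 0.18, limma adjusted p = 0.00138). By brightest probe sets, Psme1 was the farthest from zero of the 4 genes of its class. Psme3, the nuclear activator subunit, read 9.14 on each of the 3 L-LY29 arrays, against 9.51 and 9.44 in H-LY29 (-0.34 ± 0.06, limma adjusted p = 0.00418). That call was lost with quantile normalization (0.01), with equal array medians (-0.12) and with the replicate number as a block. A dimmer probe set of Psme3 was lower by much more, with 5.20, 5.68 and 5.33 in L-LY29, against 10.16 and 10.17 in H-LY29 (-4.76). That is the widest gap of any tested proteasome probe set. Psme4, the activator PA200, and Psmf1, the inhibitor PI31, did not pass at their brightest probe sets (-0.22 and 0.13). Dimmer probe sets of both genes were called, some lower and some higher, and are described with the probe sets in both directions.

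The chaperones that assemble the core and the cap included the lowest gene of all. Psmg3 read 8.30, 8.20 and 8.39 in L-LY29, against 10.21 and 10.15 in H-LY29 (-1.88 ± 0.08, limma adjusted p = 6.25e-05). Psmg1 read 8.43, 8.81 and 8.81 in L-LY29, against 9.16 and 9.19 in H-LY29 (-0.49 ± 0.14, limma adjusted p = 0.0259). Psmg4, the partner of Psmg3, did not pass (0.13), so the partners differed in what was measured. Of the cap chaperones, Psmd10, also called gankyrin, was higher, with 9.42, 9.53 and 9.45 in L-LY29, against 8.53 and 8.63 in H-LY29 (0.88 ± 0.07, limma adjusted p = 0.000284). Psmd5 read 8.48, 8.68 and 8.68 in L-LY29, against 9.22 and 9.19 in H-LY29 (-0.59 ± 0.09), and Psmd9 read 8.90, 8.87 and 8.90 in L-LY29, against 9.07 and 9.28 in H-LY29 (-0.29 ± 0.08). Psmg1 did not pass without either H-LY29 array (-0.51 and -0.47), nor Psmd9 without any single L-LY29 array (-0.29 to -0.28). With quantile normalization Psmd5 (-0.20), Psmg1 (-0.10) and Psmd9 (0.10) did not pass, and with equal array medians Psmg1 (-0.28) and Psmd9 (-0.08) did not. Of the 2 genes that share the symbol but are no subunits, Psmc3ip, a meiotic recombination factor, averaged 6.58 ± 0.054 in L-LY29, against 8.14 ± 0.205 in H-LY29 (SD; -1.56), and Psme3ip1 read 9.98, 9.97 and 9.94 in L-LY29, against 9.08 and 9.01 in H-LY29 (0.91). Without them 27 genes were lower and 8 higher.

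Over all 84 tested probe sets of the proteasome genes, 45 were lower in L-LY29, 20 higher and 19 did not pass, against 43.7% lower and 29% higher of all 23468 tested probe sets. The median difference was -0.29 and that of all probe sets -0.20. With quantile normalization 35 probe sets were lower and 25 higher, and with equal array medians 34 were lower and 28 higher. Of the 84, 2 dim ones, of Psma6 and Psmd9, had an L-LY29 mean under the filter and passed it through H-LY29. Where 2 or more probe sets of a gene were called, they lay in both directions for 6 of 18 proteasome genes (33.3%) and for 1818 of 4200 genes in all (43.3%). Psma5 read 11.26, 11.26 and 11.26 in L-LY29, against 10.85 and 11.05 in H-LY29, with its brightest probe set (0.31) and 10.52, 10.64 and 10.65 in L-LY29, against 11.74 and 11.54 in H-LY29, with the other (-1.04). The 2 probe sets are nearly as bright as each other, so leaving out any L-LY29 array swapped them and gave -1.06 to -0.99 for the gene. Psmg2, a chaperone of the core, read 8.48, 8.55 and 8.70 in L-LY29, against 9.71 and 9.70 in H-LY29, with its brightest probe set (-1.13) and 9.17, 9.17 and 9.17 in L-LY29, against 8.36 and 8.42 in H-LY29, with the next (0.78). Leaving out either H-LY29 array swapped these and gave 0.75 to 0.81. For neither gene do these arrays give a direction.

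The other 4 such genes were Psmc2, Psmd11, Psme4 and Psmf1. For Psmc2 the second probe set read 10.60, 10.75 and 10.81 in L-LY29, against 11.42 and 11.24 in H-LY29 (-0.61), opposite to the 0.30 of the first. Psmd11 had 6 tested probe sets, with 3 called higher (0.43, 1.85 and 0.52), 2 lower (-0.17 and -1.43) and 1 not passed (-0.12). Its 1.85 came from 8.90, 8.93 and 9.02 in L-LY29, against 6.95 and 7.24 in H-LY29, and its -1.43 from 6.97, 6.91 and 6.97 in L-LY29, against 8.34 and 8.42 in H-LY29. The spread between probe sets of Psmd11 is far wider than that between arrays. Psme4 had 1 lower (-0.41) and 1 higher (1.20) of 5, the higher one with 5.99, 6.51 and 6.07 in L-LY29, against 5.10 and 4.88 in H-LY29. Psmf1 had 2 lower (-1.51 and -2.03) and 1 higher (0.41) of 4, and its -2.03 came from 4.79, 5.10 and 5.22 in L-LY29, against 7.05 and 7.08 in H-LY29. Which transcripts each probe set reads was not tested.

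**Figure D5:**
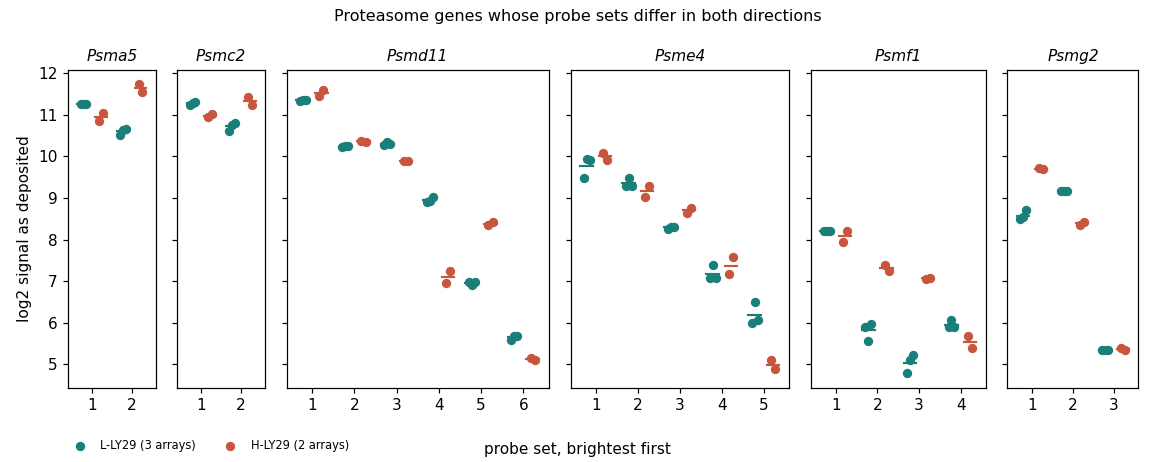
Log2 signal of every tested probe set of the 6 proteasome genes whose called probe sets lie in both directions, L-LY29 to the left and H-LY29 to the right for each probe set, with the mean as a bar and probe sets ordered by mean signal. In Psmd11 the differences between doses run from -1.43 to 1.85, and in Psma5 from -1.04 to 0.31.

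Of 57 tested genes of the ubiquitin-proteasome system outside the symbol rule, 20 were lower in L-LY29, 27 higher and 10 did not pass, with a median of 0.15, against 46.6% lower and 27.1% higher of all genes. With the 17 class I genes added, 30 of 74 were lower and 30 higher, which became 25 lower and 35 higher with quantile normalization and 26 lower and 38 higher with equal array medians. Of 8 tested proteasome-associated factors 3 were lower and 4 higher. Ube3c, a ligase that works on the proteasome, read 7.17, 7.46 and 7.68 in L-LY29, against 10.57 and 10.60 in H-LY29 (-3.14, limma adjusted p = 8.7e-05). Ecpas, a proteasome adaptor, was lower by 0.93. Akirin2, which brings proteasomes into the nucleus, read 11.27, 11.11 and 11.11 in L-LY29, against 10.11 and 10.05 in H-LY29 (1.08, limma adjusted p = 0.000156), and the deubiquitinase Uchl5 was higher by 0.81. Pomp, which matures the core, was lower by 0.32.

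Of 7 tested genes that control proteasome transcription, 5 were higher in L-LY29, 1 lower and 1 did not pass, against 27.1% higher and 46.6% lower of all genes. Nfe2l1, the factor that raises proteasome genes when proteasome activity falls short, was the lower one, with 11.35, 11.39 and 11.39 in L-LY29, against 12.16 and 12.21 in H-LY29 (-0.81, limma adjusted p = 8.15e-05). Nrf1, a separate factor of like name, read 8.91, 9.04 and 9.01 in L-LY29, against 7.34 and 7.87 in H-LY29 (1.39). Maff, a small Maf partner, was higher by 1.20. Whether these levels bear on those of the proteasome genes was not tested.

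Among the shuttle receptors that bring substrates to the cap, Ubqln1 was higher by 1.21 and Ubqln2 by 0.34, while Ubqln4 was lower by 0.74 and Rad23b by 0.51. The ubiquitin-activating enzyme Uba6 was lower by 1.61. Of 11 genes of the p97 segregase, which extracts substrates from membranes and complexes, 6 were lower and 3 higher, and p97 itself (Vcp) was lower by 0.49. Over all genes tested, 46.6% were lower and 27.1% higher. The p97 cofactor Faf2 read 6.49, 6.28 and 6.68 in L-LY29, against 8.97 and 8.48 in H-LY29 (-2.24), and the cofactor Nploc4 was lower by 1.36, whereas Ubxn1 was higher by 1.24 and Ubxn6 by 0.60. Of 26 ubiquitin E2 enzymes, which pass ubiquitin on to the ligases, 13 were higher, 7 lower and 6 did not pass, with a median of 0.27. Ube2d3 was higher by 1.01 and Ube2d2a by 0.84, and Ube2v2 was lower by 1.33. Ube2l6, the E2 of the interferon-induced modifier ISG15, read 4.03, 3.46 and 3.84 in L-LY29, under the filter of 4.77, against 6.15 and 6.63 in H-LY29. It passed that filter through H-LY29 alone, and nothing is read from its call. The counts still hold it, as 1 of the 7 lower E2 enzymes, of the 20 of 57 and of the 30 of 74 lower genes. The polyubiquitin genes and Uba1 had no tested probe set of their own.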

How the data were processed

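RNA of cultured optic nerves was hybridised to 5 Affymetrix mouse genome arrays, grouped by the dose in the sample titles. According to their methods, the authors read the image files in Affymetrix GeneChip Operating Software and applied MAS-5 normalisation in Agilent GeneSpring. What was deposited is a log2 signal for each of 45101 probe sets, taken here without further scaling. Many values repeat to the last digit between arrays, and it is not known here if MAS-5 by itself produced them. Genes were named from GEO's platform annotation: 34958 probe sets name 1 gene, 932 several and 9211 none.

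Probe sets of 1 gene with a mean at or above the 40th percentile (4.77) were kept, and each gene was represented by its brightest. L-LY29 and H-LY29 were compared in limma 3.58.1 under R 4.3.3 (lmFit, then eBayes with an intensity trend, two-sided), a gene being called at a Benjamini-Hochberg adjusted p under 0.05. The test was tried on simulated arrays first. A second fit took every probe set that was kept. The pairs were compared by an exact permutation test over the 5 arrays. The number of arrays limits the precision.

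Every member could be named, and values by array are given for the 6 catalytic genes, for the largest called differences of each class (up to 3 in each direction) and for genes with probe sets in both directions. Other pathway genes were named by the largest called differences of their list, up to 2 in each direction, and those beyond these were chosen after their values were seen. The members and lists were chosen with earlier results of these data known. Leaving out the 2 genes that are no subunits was chosen after seeing the data.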

Additional observations from a re-analysis of the deposited data

How the results depend on the processing

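The counts of proteasome genes were recomputed under other filters and floors on dim signals, after quantile normalization or with equal array medians, with no intensity trend in eBayes, with a block for the replicate number, with the mean or the second brightest probe set of a gene, and with each array left out in turn. Of the 28 genes lower in L-LY29, 16 kept their direction and call in all 15 alternatives in which they had a value, as did 3 of the 9 higher (Psmd7, Psmd10 and Psme3ip1). With 1 array left out, 26 to 27 genes were lower and 6 to 12 higher, 42 to 45 probe sets were lower and 17 to 22 higher, and of the 74 genes of the other pathway lists, class I included, 25 to 31 were lower and 26 to 33 higher. The higher count was 12 without H-LY29 replicate 2 and 6 without each L-LY29 array in turn. With equal array medians 14 genes were higher. Second brightest probe sets exist for 22 of the genes, and with them 12 were lower and 4 higher, and 16 of the other pathway genes were lower and 19 higher. The replicate numbers are shared by name only: same-numbered arrays correlated at 0.00893 and 0.0203 in their deviations from the dose means, and with the replicate block 24 genes were lower and 6 higher, with 40 and 14 probe sets and 29 and 25 other pathway genes.

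Directions that turned were mostly those of genes with probe sets in both directions. With quantile normalization Psmd9 was 0.10, Psme3 0.012 and the median of all genes 0.062. With equal array medians Psmd11 was 0.038 and the median of the core 0.0026. With the mean of the probe sets Psma5 was -0.36, Psmc2 -0.15, Psmd11 0.18, Psmf1 -0.75 and the median of the alpha genes -0.090. With the second brightest probe set Psma5 was -1.04, Psmb4 -0.011, Psmc2 -0.61, Psmf1 -1.51, Psmg2 0.78, the median of the alpha genes -0.39 and that of the core chaperones 0.78, which then rests on Psmg2 alone. With no filter the median of the alpha genes was -0.018. With 1 array left out Psma5 ran between -1.06 and 0.41, Psmg2 between -1.19 and 0.81, and the median of the alpha genes between -0.10 and 0.073. Apart from probe set choice and averaging, the cause was not tested. The pair Psmb8 less Psmb5 ran between 0.16 and 1.23 with 1 array left out, Psmb10 less Psmb7 between 0.47 and 0.58, and Psmb9 less Psmb6 between -0.40 and 0.11, and with quantile normalization the last was 0.33. Signal over background limits the 19 proteasome probe sets that lay under the filter.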

Other observations

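Values equal to the last digit occurred between arrays at the 103 proteasome probe sets. The L-LY29 arrays shared 18 to 24 such values in each pair, the H-LY29 arrays shared 4, and arrays of different doses shared 3 to 10. Over all probe sets the shares were 18.2% to 19.9% between L-LY29 arrays and 4.3% between H-LY29 arrays. Psma2 read 11.49 and Psme3 9.14 on all 3 L-LY29 arrays, so their SD there is 0. It is not known here if MAS-5 by itself produced the values, and such repeats narrow the spread between arrays on which the standard errors and p-values rest.

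A probe set of Psmd13 under the filter read 6.45, 6.34 and 6.38 in L-LY29, against 2.27 and 2.27 in H-LY29 (4.11), opposite to the brighter probe sets of the gene, and was not tested. A probe set of Psmd7 under the filter read 4.01, 3.73 and 3.98 in L-LY29, against 4.99 and 5.25 in H-LY29 (-1.21), also opposite to the brighter ones.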
